A study of Homo sapiens with 10 samples.

Results

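The 36 genes described here are known direct targets that wild-type p53 switches on, matched by symbol to the rows of a gene count table with 57736 Ensembl identifiers, and all 36 were found. They were followed through 10 RNA-seq libraries from 3 human lung cancer cell lines, each with a different missense mutation of p53. The mutation is V157F in the NCI-H2087 cells. It is R158L in the NCI-H441 cells and, at the same residue, R158P in the NCI-H2110 cells. Cells were transfected either with an siRNA against p53, a short RNA that lowers the amount of its target messenger, or with a control siRNA. NCI-H2087 and NCI-H441 had 2 libraries of p53 siRNA and 2 of control siRNA each, and NCI-H2110 had 1 of each, so no test was possible in that line. The sample titles call the p53 siRNA libraries knockouts, although the extraction protocol names an siRNA. All groups carry a mutant p53, each mutation was seen in 1 line, and no line with wild-type p53 was among the samples, so that mutation and line cannot be told apart. Nothing in the labels says whether replicates were separate cultures, so p-values measure the spread between these libraries, which may be technical.

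Wild-type p53 is a transcription factor that binds DNA as a tetramer at paired copies of a short half-site and turns on genes for cell cycle arrest, apoptosis, DNA repair and metabolic control when DNA is damaged or growth signals are abnormal. The missense mutations common in lung cancer fall in the DNA-binding domain, and many of them impair the activation of these targets. Several targets, among them CDKN1A and GADD45A, also have activators other than p53.

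Library totals ran from 18336672 to 25810934 counts, and levels are given as CPM, the counts of a gene scaled to a fixed library total that is adjusted by the TMM method for differences in composition. They are not scaled by gene length, so that levels are compared between libraries and not between genes. All 36 members passed a filter on low counts that left 17978 genes, and 32 had at least 10 counts in every library. EDA2R passed through the NCI-H2087 control libraries alone, so the filter fixed its direction in comparisons with them. SPATA18 had at least 10 counts in 1 library only, of NCI-H441 with p53 siRNA. Both are counted in the medians and directions of the members unless stated otherwise. The epithelial markers EPCAM, CDH1, KRT7, KRT8 and KRT18 were present in all libraries, with a summed level of 2882 CPM or more. Markers of leukocytes (PTPRC), neuroendocrine cells (CHGA, SYP) and the fibroblast collagen COL1A2 were at 0.409 CPM or lower, and COL1A1 lay between 12.1 and 48.7 CPM, whereas the mesenchymal marker VIM reached 2932 and 3407 CPM in NCI-H2087 with p53 siRNA and 1332 and 1672 CPM in its controls, and stayed at 16.0 CPM or lower in the other lines. As these are bulk libraries, fewer expressing cells and less RNA per cell cannot be told apart.

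In NCI-H2087, p53 siRNA raised 4 members and lowered 1. The genes that rose were the cell cycle inhibitor CDKN1A, the stress and growth-arrest gene GADD45A, the stress kinase PLK3 and the BH3-only apoptosis gene PMAIP1, and the gene that fell was TP53I3, an oxidoreductase linked to oxidative stress. Called means an adjusted p below 0.05 in edgeR's quasi-likelihood test, with Benjamini-Hochberg adjustment over 17978 genes. At that threshold 8.68% of all genes tested were called in this line, 4.98% higher and 3.69% lower with p53 siRNA. Set against that background, 5 called members of 36 is a share that is not read as a result about the list. The median log2 change of the members was 0.06, against −0.03 for all genes tested, with 19 members positive and 17 negative. The 17 include EDA2R, whose direction the filter fixed, and SPATA18, at 0 counts with p53 siRNA and near 0 in controls.

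CDKN1A (ENSG00000124762), which encodes p21, an inhibitor of cyclin-dependent kinases, had 78.7 and 101 CPM in NCI-H2087 libraries with p53 siRNA, against 20.2 and 19.8 CPM in controls. The libraries did not overlap, and the log2 change was 2.17 ± 0.18 (SE; edgeR adjusted p = 0.000577). PLK3 (ENSG00000173846) had 10.8 and 15.5 CPM with p53 siRNA, against 3.35 and 2.75 CPM in controls, a log2 change of 2.11 ± 0.29 (edgeR adjusted p = 0.00339). GADD45A (ENSG00000116717), which binds growth-arrest and repair proteins, had 59.4 and 66.7 CPM with p53 siRNA, against 25.7 and 24.2 CPM in controls, a log2 change of 1.34 ± 0.18 (edgeR adjusted p = 0.0029). PMAIP1 (ENSG00000141682), which encodes NOXA, an antagonist of the BCL2 family protein MCL1, had 26.1 and 25.1 CPM with p53 siRNA, against 13.1 and 7.65 CPM in controls, a log2 change of 1.31 ± 0.29 (edgeR adjusted p = 0.0253). In all 4 genes both p53 siRNA libraries lay above both controls, and the controls of PMAIP1 lay furthest apart. TP53I3 (ENSG00000115129) went the other way, with 22.6 and 17.4 CPM with p53 siRNA, against 56.9 and 53.8 CPM in controls, a log2 change of −1.47 ± 0.25 (edgeR adjusted p = 0.00855).

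The calls were recomputed with each NCI-H2087 library left out, which also cut the number of all genes called to 177 to 1103, against 1560 with every library, and the 5 members kept their direction throughout. CDKN1A kept its call when each of the 4 NCI-H2087 libraries was left out, with edgeR adjusted p from 0.000878 to 0.0169. GADD45A (log2 1.31) and PLK3 (log2 1.98) lost theirs without control replicate 2 (edgeR adjusted p = 0.0555 and 0.0606). PMAIP1, whose log2 change ran from 0.97 to 1.75, lost its call when control replicate 2 was removed (edgeR adjusted p = 0.206), and when either p53 siRNA library was removed (0.0692 for replicate 1 and 0.078 for replicate 2). TP53I3, whose log2 change ran from −1.67 to −1.29, lost its call when either control was removed (edgeR adjusted p = 0.066 for replicate 1 and 0.0707 for replicate 2), and when p53 siRNA replicate 2 was removed (0.0591). With the replicate number as a block, 12 members were called, against 25.4% of all genes: CDKN1A, GADD45A, PLK2, PLK3, PMAIP1, SERTAD1 and TRIAP1 higher, and CYFIP2, PRDM1, TP53I3, TP53INP1 and TRIM22 lower. When libraries were scaled by their totals alone, the median of all genes in this line moved to −0.21 and that of the members to −0.11, and 33.2% in place of 57.4% of all called genes were higher. The 5 members named kept their direction and their call under that scaling. In the same line 4 of 5 epithelial markers rose (CDH1, KRT7, KRT8 and KRT18), with a summed level of 8743 and 8873 CPM with p53 siRNA and 3706 and 4051 CPM in controls, and VIM rose as well (log2 change 1.08 ± 0.25, edgeR adjusted p = 0.0305). Their part in the members' changes was not tested.

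**Figure D1:**
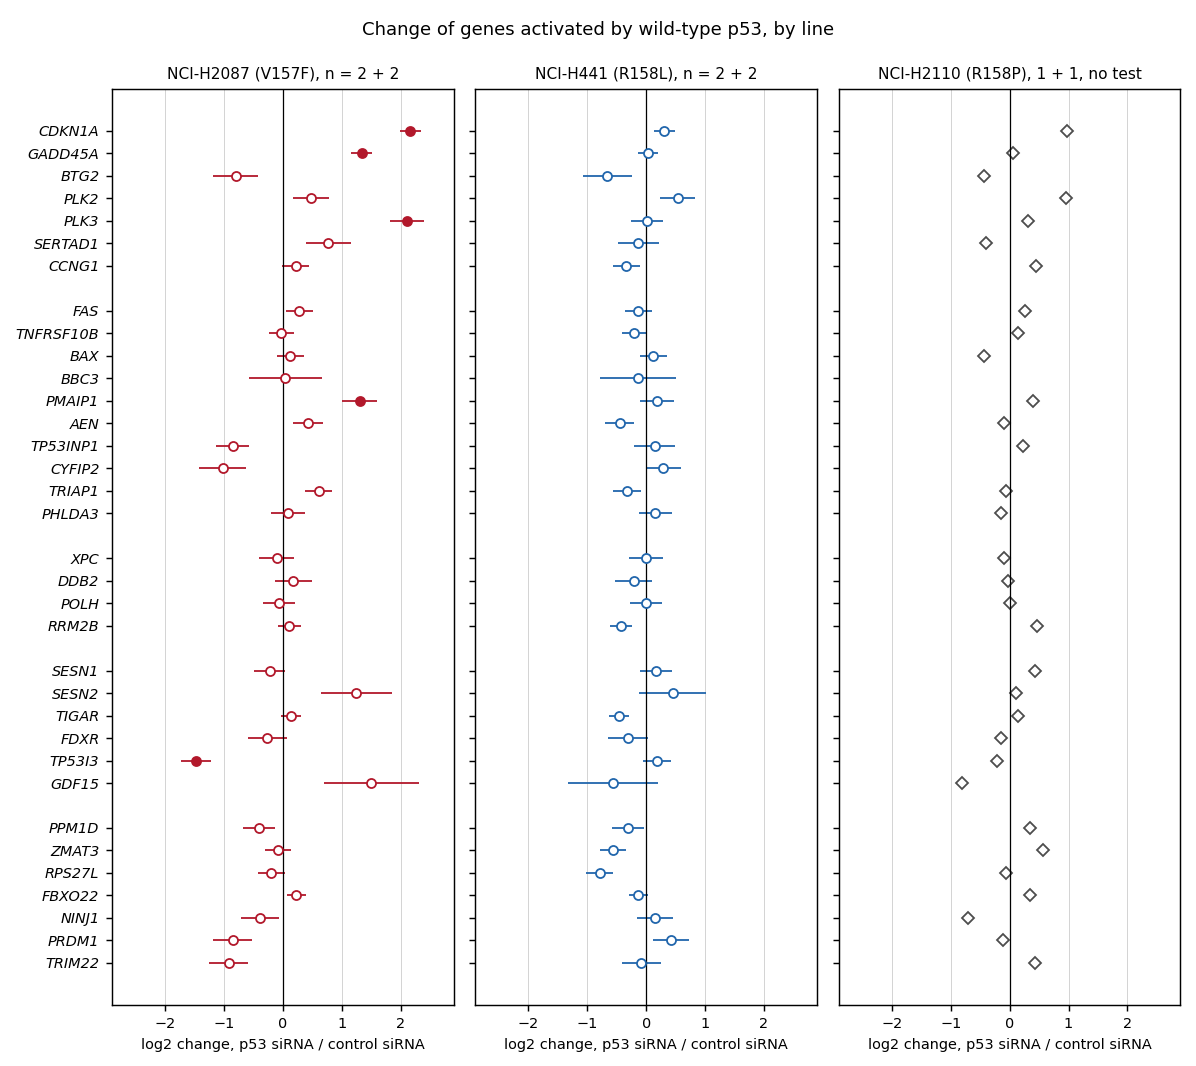
Log2 change of p53 siRNA over control siRNA (x axis) for the members in 3 panels, NCI-H2087, NCI-H441 and NCI-H2110, ordered by role. Bars are standard errors of the fit, absent for the single pair of NCI-H2110, and filled points are called at an adjusted p below 0.05. EDA2R and SPATA18, at or near 0 counts, are left out, as are BBC3 and CYFIP2 in NCI-H2110. The filled points are CDKN1A, GADD45A, PLK3, PMAIP1 and TP53I3, all in NCI-H2087.

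**Figure D2:**
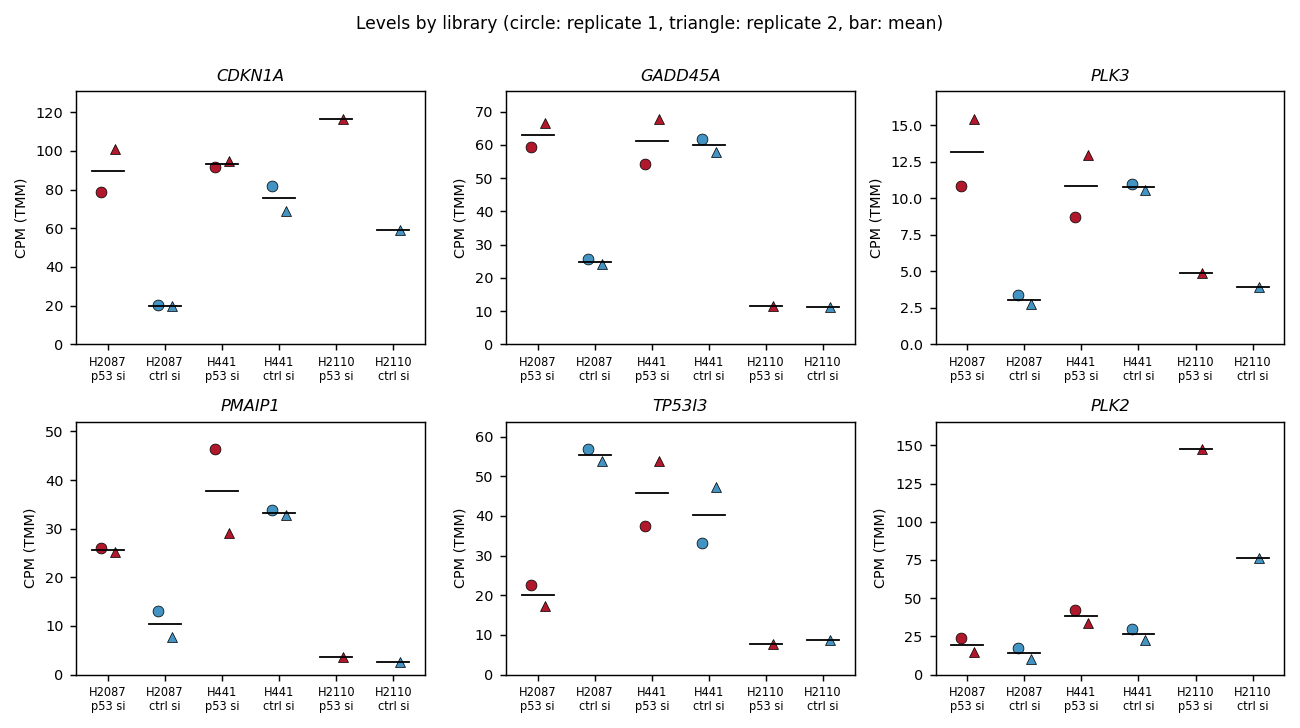
Level in CPM (y axes, each from 0) of the 5 members called in NCI-H2087 and of PLK2, with 1 point per library (circle for replicate 1, triangle for replicate 2, line for the mean), p53 siRNA left of control siRNA in each line. In NCI-H2087 CDKN1A lies at 78.7 and 101 CPM with p53 siRNA, against 20.2 and 19.8 CPM in controls, and TP53I3 shows the opposite order.

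The bases before the transcription start of 4 of these genes are printed because the changes concern their transcripts; RefSeq gave no window for GADD45A. The windows hold the 250 bases before the start, from RefSeq on GRCh38.p14, and capitals mark the GC box, GGGCGG or its complement CCGCCC, counted on both strands. CDKN1A lies at chr6:36678464-36678713 on the plus strand, PLK3 at chr1:44800127-44800376 on the plus strand, PMAIP1 at chr18:59899746-59899995 on the plus strand and TP53I3 at chr2:24084835-24085084 on the minus strand.
CDKN1A: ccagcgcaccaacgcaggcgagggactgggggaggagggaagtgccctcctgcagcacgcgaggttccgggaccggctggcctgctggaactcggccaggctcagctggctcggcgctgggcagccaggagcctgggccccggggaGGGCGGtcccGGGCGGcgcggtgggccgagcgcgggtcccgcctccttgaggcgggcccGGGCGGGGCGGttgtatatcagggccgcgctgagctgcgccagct
PLK3: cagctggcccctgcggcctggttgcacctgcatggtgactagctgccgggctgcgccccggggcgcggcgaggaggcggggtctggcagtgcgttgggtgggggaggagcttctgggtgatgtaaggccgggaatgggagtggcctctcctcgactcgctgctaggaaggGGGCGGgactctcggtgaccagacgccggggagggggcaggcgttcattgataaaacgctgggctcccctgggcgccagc
PMAIP1: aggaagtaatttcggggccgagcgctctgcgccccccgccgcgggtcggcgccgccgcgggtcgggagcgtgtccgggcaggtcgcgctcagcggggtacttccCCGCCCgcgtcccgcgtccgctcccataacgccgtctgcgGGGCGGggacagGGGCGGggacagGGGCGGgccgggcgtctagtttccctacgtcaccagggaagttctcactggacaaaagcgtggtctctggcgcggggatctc
TP53I3: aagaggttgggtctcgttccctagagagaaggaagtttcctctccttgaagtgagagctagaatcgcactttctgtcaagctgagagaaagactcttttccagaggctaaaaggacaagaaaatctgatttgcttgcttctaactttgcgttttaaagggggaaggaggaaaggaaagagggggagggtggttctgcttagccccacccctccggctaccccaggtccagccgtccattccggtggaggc
The window of CDKN1A holds 4 GC boxes, of which the last 2 overlap, that of PMAIP1 holds 4, that of PLK3 holds 1, and that of TP53I3 holds 0. Over the 29 members with a window, 24 held a GC box (82.8%), against 42.3% of 27305 RefSeq windows of the same length. The AP-1 motif TGANTCA stood in 2 of the 29 (6.9%), BBC3 and FAS, against 6.6% of all windows. All windows together were not limited to genes expressed in these lines, whereas the members passed the filter. As the sets are not alike, these shares are not read as a result about the members.

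A p53 half-site with no mismatch stood in 4 of the 29 member windows (13.8%), those of AEN, FDXR, PLK2 and RPS27L. It stood in 5.53% of all windows, a background that was likewise not limited to expressed genes, so these shares are not read as a result either. Stretches of 60 bases around each are shown because they carry the letters p53 is known to bind, with the half-site in capitals. PLK2 is at chr5:58460184-58460243 on the minus strand, RPS27L at chr15:63157502-63157561 on the minus strand, AEN at chr15:88621280-88621339 on the plus strand and FDXR at chr17:74872995-74873054 on the minus strand, all on GRCh38.p14.
PLK2: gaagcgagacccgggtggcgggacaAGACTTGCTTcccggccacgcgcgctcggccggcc
RPS27L: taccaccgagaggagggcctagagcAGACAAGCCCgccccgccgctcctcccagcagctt
AEN: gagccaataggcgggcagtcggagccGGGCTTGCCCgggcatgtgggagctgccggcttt
FDXR: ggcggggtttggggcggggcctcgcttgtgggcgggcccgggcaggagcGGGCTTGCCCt
A match describes letters, not binding, and its absence from a window says only that the letters are not in those bases. None of these 4 genes was called with p53 siRNA in a line by the unblocked edgeR fit, and PLK2 was called in NCI-H2087 with the replicate block.

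Among the 7 members grouped under cell cycle arrest, 3 rose in NCI-H2087, where 4.98% of all genes rose. Their median log2 change was 0.77, against −0.03 for all genes. The groups were set with earlier results of these data known, so these values are not read as a result about the group. PLK2, a stress-responsive polo-like kinase, had 24.0 and 14.8 CPM with p53 siRNA, against 17.7 and 10.3 CPM in controls. Its libraries overlapped, although within each replicate number the p53 siRNA library was the higher. SERTAD1, a transcriptional cofactor of cell cycle genes, had 3.03 and 5.03 CPM with p53 siRNA, against 2.06 and 2.64 CPM in controls. PLK2 and SERTAD1 were called in this line only with the replicate block, which called 25.4% of all genes. The cyclin CCNG1 had 195 and 178 CPM with p53 siRNA, against 163 and 156 CPM in controls. The antiproliferative gene BTG2 was the only negative member of this group, at 1.41 and 1.39 CPM with p53 siRNA and 2.17 and 2.71 CPM in controls.

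Of the 11 death receptor and mitochondrial apoptosis genes, PMAIP1 alone was called in NCI-H2087, a share near the 8.68% of all genes called. The median log2 change was 0.08, with EDA2R counted. BAX, the pore-forming effector of mitochondrial apoptosis, had 69.3 and 64.6 CPM with p53 siRNA, against 56.2 and 66.5 CPM in controls. BBC3, which encodes the BH3-only protein PUMA, was near 1 CPM, at 0.470 and 1.77 CPM with p53 siRNA and 0.722 and 1.43 CPM in controls. Neither gene separated the libraries by siRNA. The death receptor gene FAS had 39.5 and 27.5 CPM with p53 siRNA, against 29.5 and 25.5 CPM in controls, and these also overlapped. TRIAP1, which encodes a small inhibitor of apoptosis, had 27.2 and 22.0 CPM with p53 siRNA, against 18 and 14.4 CPM in controls, and was called only with the replicate block.

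The 4 genes of DNA repair and nucleotide supply, XPC and DDB2 (recognition of ultraviolet damage), POLH (a translesion polymerase) and RRM2B (a ribonucleotide reductase subunit), had log2 changes from −0.11 to 0.18 in NCI-H2087, and their libraries overlapped. The 7 members of metabolism, redox control and secreted signals had 1 call, TP53I3, with 8.68% of all genes called in this line. Against the same background, the 7 feedback and other regulators had 0 calls by edgeR. DESeq2 and limma-voom also called 0 of them, against 2133 and 1613 of all 17978 genes. An unadjusted edgeR p below 0.05 was found for 2 of the 7 and for 4553 of the 17978 genes. Of the 7, 6 were negative, with a median of −0.39, where 9480 of all genes were negative. These values are not read as a result about the group. Among the 7, the repressor PRDM1 had 3.38 and 1.77 CPM with p53 siRNA, against 4.18 and 5.09 CPM in controls. The interferon-responsive TRIM22 had 3.38 and 2.32 CPM with p53 siRNA, against 4.80 and 5.96 CPM in controls. Both were called only with the block.

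SESN2, a stress-induced sestrin that restrains mTORC1, and GDF15, a secreted stress cytokine, differed between the p53 siRNA replicates of NCI-H2087 more than between siRNAs. SESN2 had 5.73 and 29.9 CPM with p53 siRNA, against 7.17 and 7.80 CPM in controls, a log2 change of 1.25 ± 0.60 (edgeR adjusted p = 0.229). GDF15 had 2.31 and 27.2 CPM with p53 siRNA, against 3.92 and 6.41 CPM in controls, a log2 change of 1.503 ± 0.81 (edgeR adjusted p = 0.281). For both genes replicate 1 lay below both controls and replicate 2 above them, and without replicate 2 of p53 siRNA the changes were −0.39 for SESN2 and −1.17 for GDF15. Without replicate 1 both were called higher.

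**Figure D3:**
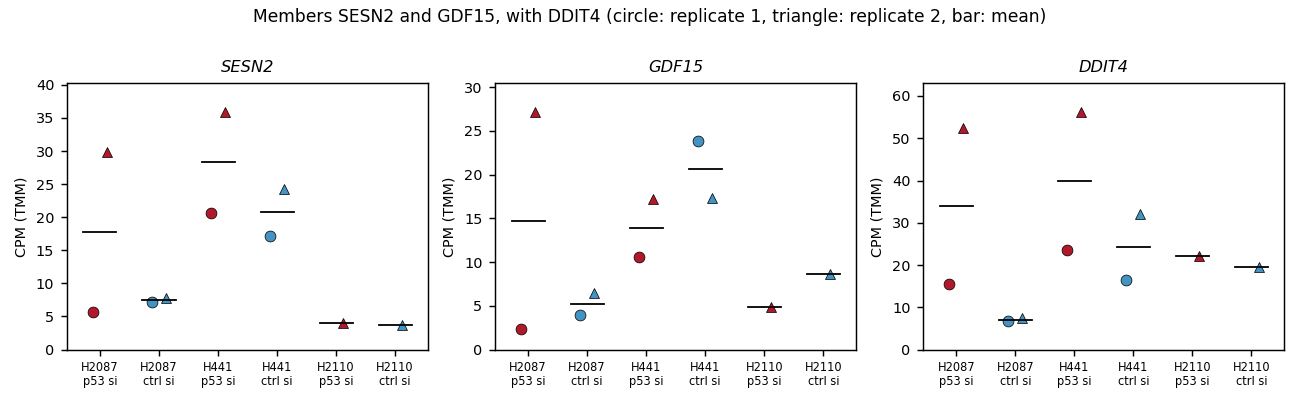
Level in CPM (y axes, each from 0) of the members SESN2 and GDF15 and of DDIT4, another p53 target, 1 point per library (circle for replicate 1, triangle for replicate 2, line for the mean), p53 siRNA left of control siRNA in each line. In NCI-H2087 the p53 siRNA libraries split, with SESN2 at 5.73 and 29.9 CPM and GDF15 at 2.31 and 27.2 CPM.

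In NCI-H441, 0 of the 36 members were called by edgeR, where 0.00556% of all genes tested were called. DESeq2, limma-voom and the replicate block also called 0 members, against 25, 1 and 75 of all genes. An unadjusted edgeR p below 0.05 was found for 3 members and for 796 of 17978 genes. The median log2 change was −0.04, against 0.01 for all genes, with 15 members positive and 20 negative, and the range ran from −0.79 (RPS27L) to 0.53 (PLK2). CDKN1A had 91.7 and 94.9 CPM with p53 siRNA, against 81.8 and 69.1 CPM in controls, a log2 change of 0.31 ± 0.17 (edgeR adjusted p = 0.933). PLK3 had 8.69 and 13.0 CPM with p53 siRNA, against 11.0 and 10.5 CPM in controls. GADD45A had 54.3 and 68.0 CPM with p53 siRNA, against 61.9 and 57.8 CPM in controls.

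The libraries of PLK3 and GADD45A overlapped in this line, and those of CDKN1A did not. PMAIP1 had 46.4 and 29.0 CPM with p53 siRNA, against 33.8 and 32.7 CPM in controls, and TP53I3 had 37.4 and 53.9 CPM with p53 siRNA, against 33.1 and 47.3 CPM in controls, both overlapping. The 3 members with an unadjusted p below 0.05 were negative. RPS27L, a close homologue of the ribosomal protein gene RPS27 with which reads may be shared, had 9.06 and 6.83 CPM with p53 siRNA, against 16.1 and 11.5 CPM in controls. The glycolysis regulator TIGAR had 29.6 and 29.1 CPM with p53 siRNA, against 39.5 and 41.4 CPM in controls, and the RNA-binding ZMAT3 had 29.5 and 20.1 CPM with p53 siRNA, against 36.4 and 37.2 CPM in controls. Each had an edgeR adjusted p of 0.933.

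In NCI-H2110, the single pair was compared by the ratio of CPM with 2 counts added, over the 32 members with at least 50 counts in either library. None of the 32 differed by 2-fold or more, against 1.49% of 12385 genes counted in the same way, and the median log2 ratio was 0.08, with 18 positive and 14 negative. CDKN1A had 117 CPM with p53 siRNA and 59.1 CPM with control siRNA, a 1.97-fold ratio, and PLK2 had 148 and 76.4 CPM in the same order, a 1.93-fold ratio. At the other end, GDF15 had 4.85 CPM with p53 siRNA and 8.58 CPM with control siRNA, a log2 ratio of −0.81. These ratios have no replicate check. CYFIP2, EDA2R and SPATA18 were at 0 counts in both NCI-H2110 libraries.

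Over the 3 lines together, the model had a line term and 1 siRNA effect. In it 0 of the 36 members were called by edgeR, against 0.395% of all genes, and the median log2 change was −0.04. An unadjusted edgeR p below 0.05 was found for 8 members and for 2553 of 17978 genes. DESeq2 called 1 member, CDKN1A, against 609 of all genes. Limma-voom and the replicate block called 0 members, against 94 and 71 of all genes. The additive change of CDKN1A was 1.17 ± 0.27 (edgeR adjusted p = 0.0976), and that of PLK2 was 0.60 ± 0.19 (edgeR adjusted p = 0.18).

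The difference between the responses of NCI-H2087 and NCI-H441 was tested as an interaction, and 1 member was called, CDKN1A, against 0.412% of all genes. Its change in NCI-H2087 exceeded that in NCI-H441 by 1.86 ± 0.25 on the log2 scale (edgeR adjusted p = 0.0258). The call was lost without any 1 of 7 of the 8 libraries, at edgeR adjusted p from 0.0626 to 0.176, and held without p53 siRNA replicate 1 of NCI-H2087 (edgeR adjusted p = 0.0159). For PLK3 the difference was 2.10 ± 0.40 (edgeR adjusted p = 0.0704), for GADD45A 1.31 ± 0.25 (edgeR adjusted p = 0.0719) and for TP53I3 −1.65 ± 0.35 (edgeR adjusted p = 0.0898). The median difference over the members was 0.18, against −0.03 for all genes. With the replicate block 8 members were called, against 8.92% of all genes: CDKN1A, GADD45A, PLK3, PMAIP1 and TRIAP1 higher in NCI-H2087, and CYFIP2, PRDM1 and TP53I3 lower.

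Under control siRNA the levels were compared between NCI-H2087 and NCI-H441. Leaving aside EDA2R, which passed the filter only through the group where it is high, 16 of 35 members were called, 3 higher and 13 lower in NCI-H2087, where 42.1% of all genes were called, 22.0% higher and 20.1% lower. The total of 16 is near the background share and is not read as a result about the members. The median log2 difference was −0.46, against 0.02 for all genes. With the replicate block BAX and BTG2 were also called higher, and GDF15, SESN2 and TNFRSF10B lower, against 47.2% of all genes. In the cell cycle group 5 of 7 were lower and 1 was higher in NCI-H2087, which is likewise not read as a result about the group.

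CDKN1A had 20.2 and 19.8 CPM in NCI-H2087 controls, against 81.8 and 69.1 CPM in NCI-H441 controls, a log2 difference of −1.92 ± 0.18 (edgeR adjusted p = 3.67e-05). PLK3 was lower in NCI-H2087 by the same measure (−1.82 ± 0.29), as were GADD45A (−1.26 ± 0.18) and PMAIP1 (−1.68 ± 0.30). The changes with p53 siRNA in NCI-H2087 and these line differences share the NCI-H2087 control libraries, which enter them with opposite sign. These genes were also picked by their calls over those controls. Opposite signs are therefore favoured by construction, and the pairs cannot show whether p53 siRNA brought a gene to its NCI-H441 level. With the p53 siRNA change first, the values were 2.17 and −1.92 for CDKN1A and 2.11 and −1.82 for PLK3. They were 1.34 and −1.26 for GADD45A and 1.31 and −1.68 for PMAIP1. TP53I3, which fell in NCI-H2087, had 56.9 and 53.8 CPM in NCI-H2087 controls, against 33.1 and 47.3 CPM in NCI-H441 controls, and was not called.

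**Figure D4:**
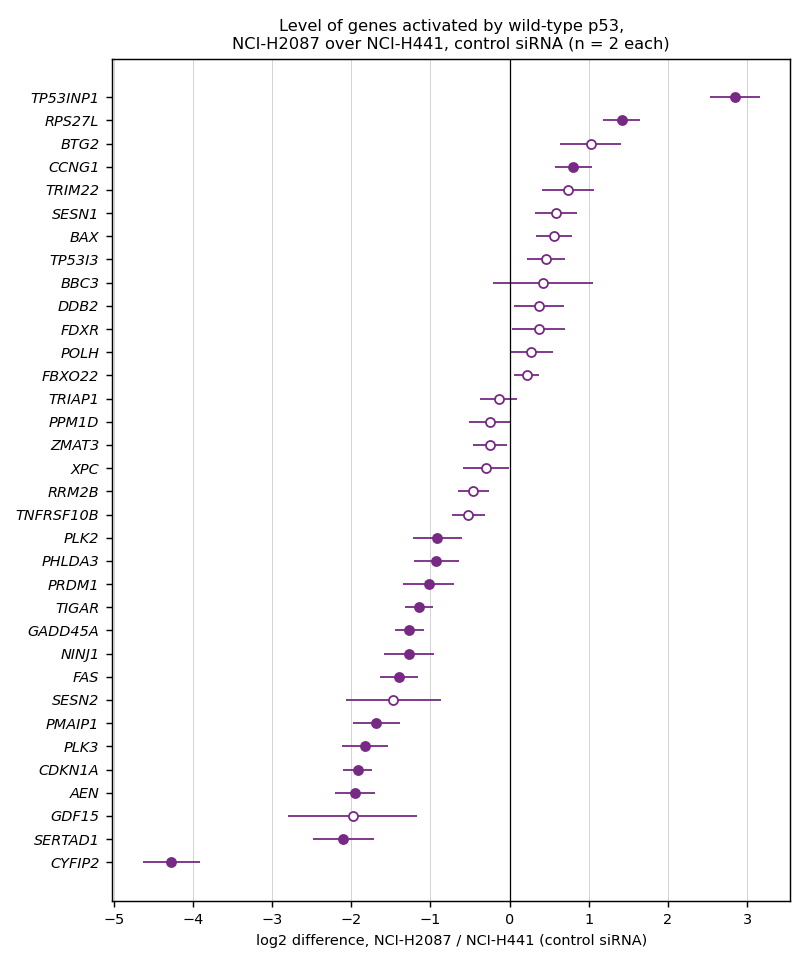
Log2 level difference of NCI-H2087 over NCI-H441 under control siRNA (x axis) for each member, ordered from the highest to the lowest. Filled points are called at an adjusted p below 0.05, bars are standard errors, and EDA2R and SPATA18 are left out. TP53INP1 lies furthest to the right at 2.84 and CYFIP2 furthest to the left at −4.27, and CDKN1A lies at −1.92.

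The other members lower in NCI-H2087 included SERTAD1, at 2.06 and 2.64 CPM in NCI-H2087, against 13.0 and 7.25 CPM in NCI-H441. FAS had 29.5 and 25.5 CPM in NCI-H2087, against 59.1 and 85.8 CPM in NCI-H441, and the exonuclease gene AEN had 10.9 and 10.1 CPM in NCI-H2087, against 49.6 and 31.8 CPM in NCI-H441. The largest gap among the members lower in NCI-H2087 was that of CYFIP2, a subunit of actin-regulating complexes that is also a p53 target, at 1.70 and 2.49 CPM in NCI-H2087 and 52.9 and 29.3 CPM in NCI-H441 (log2 −4.27 ± 0.36). TIGAR had 19.96 and 16.6 CPM in NCI-H2087, against 39.5 and 41.4 CPM in NCI-H441. The membrane protein gene NINJ1 had 5.26 and 8.37 CPM in NCI-H2087, against 16.0 and 17.0 CPM in NCI-H441. PRDM1 and PLK2 were lower as well, by smaller margins. PRDM1 had 4.18 and 5.09 CPM in NCI-H2087, against 9.27 and 9.62 CPM in NCI-H441 (log2 −1.02 ± 0.32). PLK2 had 17.7 and 10.3 CPM in NCI-H2087, against 30.04 and 22.6 CPM in NCI-H441 (log2 −0.91 ± 0.31). PHLDA3, which encodes an inhibitor of AKT signalling, had 2.37 and 2.83 CPM in NCI-H2087, against 5.11 and 4.81 CPM in NCI-H441 (log2 −0.93 ± 0.29). None of the 13 had overlapping libraries. As they were picked by the call, this adds no further support, and the share over all genes was not computed.

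The 3 members called higher in NCI-H2087 were TP53INP1, RPS27L and CCNG1. TP53INP1, a stress protein that promotes p53 activity and autophagy, had 5.31 and 7.73 CPM in NCI-H2087, against 0.730 and 1.07 CPM in NCI-H441 (log2 2.84 ± 0.31). RPS27L had 40.7 and 32.8 CPM in NCI-H2087, against 16.1 and 11.5 CPM in NCI-H441 (log2 1.41 ± 0.23). CCNG1 had 163 and 156 CPM in NCI-H2087, against 96.3 and 86.4 CPM in NCI-H441 (log2 0.81 ± 0.23). EDA2R, a receptor of the tumour necrosis factor family whose direction the filter fixed, had 0.413 and 0.679 CPM in NCI-H2087 and 0 counts in both NCI-H441 controls, which is at least 4.55-fold higher with a floor of 3 counts per library. When each of the 4 control libraries was left out in turn, CCNG1, NINJ1, PHLDA3, PLK2 and PRDM1 lost the call in at least 1 of these fits, and DESeq2 did not call PHLDA3.

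Across the control libraries of all 3 lines, NCI-H441 held the highest mean level for 16 members, NCI-H2110 for 12 and NCI-H2087 for 8. NCI-H2087 was lowest for 15 members. The ranks include EDA2R and SPATA18, near 0 counts. No such ranking was made over all genes, so these numbers are not read as a result about the members. With 1 library, the NCI-H2110 levels carry no error. PLK2 had 76.4 CPM in NCI-H2110, above the 10.3 to 30.04 CPM of the other controls, and TP53INP1 had 19.4 CPM, above their 0.730 to 7.73 CPM. SESN1, a sestrin, had 9.13 CPM in NCI-H2110, above their 1.93 to 3.25 CPM, whereas PMAIP1 had 2.68 CPM there, below their 7.65 to 33.8 CPM. CYFIP2, at 0 counts in NCI-H2110, was at least 348-fold higher in NCI-H441 controls and at least 17.7-fold higher in NCI-H2087 controls. The highest EDA2R count in any library was 18, and the highest SPATA18 count was 14.

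Of 39 other p53 targets that passed the filter, p53 siRNA raised 6 and lowered 2 in NCI-H2087, against the background of 4.98% and 3.69%, with a median log2 change of −0.06. SFN, which encodes the 14-3-3 sigma protein of the G2 checkpoint, had 239.7 and 239.2 CPM with p53 siRNA, against 71.7 and 52.2 CPM in controls (log2 1.95 ± 0.29, edgeR adjusted p = 0.00456). DDIT4, an inhibitor of mTORC1, had 15.6 and 52.5 CPM with p53 siRNA, against 6.70 and 7.46 CPM in controls (log2 2.26 ± 0.59, edgeR adjusted p = 0.0443). Its p53 siRNA libraries lay far apart, with replicate 2 the higher, as for SESN2 and GDF15. The cytokine LIF (1.07 ± 0.20), the serpin SERPINB5 (0.86 ± 0.20) and the small GTPase RAP2B (0.79 ± 0.21) also rose. SUSD6 (−0.99 ± 0.20) and the lysosomal fucosidase FUCA1 (−0.84 ± 0.23, edgeR adjusted p = 0.0498) fell. Unlike those of the members, the calls of these other targets were not examined with single libraries left out. MDM2, the ubiquitin ligase that degrades p53, had 149.5 and 106 CPM with p53 siRNA, against 80.3 and 68.7 CPM in controls, and was not called (edgeR adjusted p = 0.118). In NCI-H441 edgeR called 0 of the 39, against 0.00556% of all genes. An unadjusted edgeR p below 0.05 was found there for 1 of the 39 and for 796 of 17978 genes. In NCI-H2110 none of the 37 counted differed by 2-fold or more, against 1.49% of 12385 genes.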

How the data were processed

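The deposited table holds raw gene counts of 10 libraries, as whole numbers by the values; per the submitters' processing notes the tools include Bowtie2 and RSEM 1.2.12 and the build was hg19, and the counting step is not given in the sources used here. Library kits are per the labels' protocols. Identifiers were matched to symbols for 51959 of 57736 rows. Genes were filtered with filterByExpr by group (minimum count 10), leaving 17978 genes and 99.96% of counts, scaled by TMM and fitted with edgeR 4.0.16 in R 4.3.3 over the 6 groups (residual df 4, or 6 for the additive model; common biological variation 19.8%). DESeq2 1.42.0, limma-voom (limma 3.58.1), other scalings, no filter, the replicate block and leaving out each library were alternatives. Standard errors are the log2 change over the square root of the F statistic. Same-numbered libraries deviated together (r = 0.53 in NCI-H2087 and 0.60 in NCI-H441, over 9332 genes). This pairs them by the data although no label states a shared batch. Members whose call the block changed are named in the Results, without their blocked log2 changes. The fit was also run on simulated counts that held no line differences and no replicate pairing, with only well-counted genes changed. That run does not measure error rates in these data.

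Members were given per library if called in any test, or if they changed by at least 1 on the log2 scale in a line at a mean of at least 5 CPM, and CDKN1A, BAX, BBC3 and FAS in any case. The members and lists were chosen with earlier results of these data known. Of the genes on these lists, 3 are not reported here.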

Additional observations from a re-analysis of the deposited data

Results flagged for a closer look

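CDKN1A was marked because its response to p53 siRNA differed between the 2 replicated lines by a test of the difference itself: the log2 change was 2.17 in NCI-H2087 and 0.31 in NCI-H441, a difference of 1.86 ± 0.25 (edgeR adjusted p = 0.0258). The call did not hold in most of the fits that left out a single library, as given in the Results. Groups of 2 libraries were too small for a search for single outlying samples.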

How the results depend on the processing

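Without the low-count filter, edgeR called 8 members and 2700 genes in NCI-H2087, 69 genes in NCI-H441, 7 members and 1123 genes over the 3 lines, and 6 members and 810 genes for the difference between lines. DESeq2 called 25 genes in NCI-H441, 1 member and 609 genes over the 3 lines, and 4 members and 459 genes for the difference, and limma-voom called 31 genes for the difference. The replicate block gave 12 members and 4571 genes in NCI-H2087, 75 genes in NCI-H441, and 8 members and 1604 genes for the difference. With the NCI-H441 libraries alone, 0 genes were called there. Leaving out each library in turn gave 1 to 6 members and 177 to 1103 genes in NCI-H2087, 0 to 2 genes in NCI-H441, 2 to 117 genes over the 3 lines, 0 to 2 members and 0 to 92 genes for the difference, and 11 to 13 members and 4713 to 5366 genes between the control lines. There edgeR called 17 members with EDA2R included, and as counted so 21 without the filter, 22 with the block, 23 with the compared groups alone, 18 by limma-voom and 16 by DESeq2. The changes that reversed did so without p53 siRNA replicate 2 of NCI-H2087: SESN2 to −0.39, GDF15 to −1.17, and the GDF15 difference to −0.60. Without replicate 1 instead they were 2.00, 2.38 and 2.95. The cause was not tested. Depth was lowest in control replicate 1 of NCI-H2087, at 18336672 counts, against 23073288 to 25810934 in the other libraries. With 2 libraries a group small changes could not be detected.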

Other observations

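Among the other p53 targets, KITLG, a growth factor of the KIT receptor, had 20.1 and 6.0 CPM in NCI-H2087 with p53 siRNA, against 32.0 and 27.0 CPM in its controls. Its p53 siRNA libraries lay far apart, and it was not called by the unblocked edgeR fit. The lines differed in further targets under control siRNA. PLTP, a phospholipid transfer protein, had 49.0 and 61.6 CPM in NCI-H2087, against 4.51 and 2.26 CPM in NCI-H441, and 0.275 CPM in NCI-H2110. PTP4A1, a phosphatase, had 1324 CPM in NCI-H2110 and 272 to 383 CPM in the other controls. CMBL, a hydrolase, had 779 CPM in NCI-H2110 and 101 to 169 CPM in the other controls. These genes were picked after their values were seen.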
